A study of Drosophila melanogaster with 3 samples.

Results

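The proteasome subunit genes of Drosophila melanogaster were taken as the protein-coding genes of the Ensembl annotation whose symbol starts with Prosalpha, Prosbeta, Rpn or Rpt followed by a digit. The rule found 48 of 13945 protein-coding genes. Of these, 32 encode the general particle, namely 7 alpha subunits, 7 beta subunits, 6 Rpt ATPases and 12 Rpn non-ATPases. The other 16 carry a symbol ending in T, T1, T2, R, R1 or R2 and are called paralogues here. The class rests on the symbols alone.

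The protein mapped was Dbx, a homeodomain transcription factor of embryonic interneurons, fused to enhanced green fluorescent protein (eGFP). Whole embryos 8 to 24 h old that carried the Dbx-eGFP transgene were used for chromatin immunoprecipitation with an antibody against GFP and sequencing (ChIP-seq), in 3 biological replicates of 1 group. All 3 carry the fusion, so the comparisons are between genes within a peak list, and the control experiment named in the labels was not analysed here. How far a peak is particular to the fusion is therefore not known, and a peak from whole embryos cannot be placed in a cell type. The regulatory sequence that drives the fusion is not given in the sources used here.

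The proteasome is the large protease that degrades proteins tagged with ubiquitin. Its core is a barrel in which alpha rings gate the entry and beta rings hold the proteolytic sites. A cap of Rpt ATPases, which unfold substrates, and Rpn subunits, which bind ubiquitin and remove it, sits on the barrel. Nearly every cell makes the general subunits, and their promoters in flies often carry elements of widely expressed genes, such as the DNA replication-related element (DRE). Several of the paralogues are known from the male germline, where they replace the general subunit in developing sperm.

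The promoter windows of 4 general subunits with a conservative promoter summit are shown first, because the results turn on such sites. They are not the 4 of highest signal. The windows of the paralogues of one of them, Prosbeta2, follow for contrast. Each window runs 5′ to 3′ on the strand of the gene from 250 bases before to 50 bases after the start site, in the RefSeq sequence of dm6. Capitals mark the letters TATCGATA (DRE), CGATA (the core bound by the insulator protein BEAF-32, which DRE contains) and GGTCACACT (motif 1, bound by M1BP), on either strand. A marked run can hold several overlapping words.
Rpn3 (chr2L:19051540-19051839, plus strand): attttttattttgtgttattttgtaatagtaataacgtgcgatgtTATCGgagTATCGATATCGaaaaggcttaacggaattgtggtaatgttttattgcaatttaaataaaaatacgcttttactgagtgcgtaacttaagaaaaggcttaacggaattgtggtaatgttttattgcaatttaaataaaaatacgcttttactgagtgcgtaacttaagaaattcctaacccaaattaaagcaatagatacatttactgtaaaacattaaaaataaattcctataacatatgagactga
Prosbeta2 (chr3L:14999701-15000000, plus strand): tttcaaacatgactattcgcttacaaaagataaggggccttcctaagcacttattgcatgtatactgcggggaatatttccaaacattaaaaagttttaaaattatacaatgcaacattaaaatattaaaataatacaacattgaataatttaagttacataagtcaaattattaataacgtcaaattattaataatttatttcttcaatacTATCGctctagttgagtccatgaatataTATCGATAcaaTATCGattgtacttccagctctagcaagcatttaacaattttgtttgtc
Rpn10 (chr3L:21536750-21537049, plus strand): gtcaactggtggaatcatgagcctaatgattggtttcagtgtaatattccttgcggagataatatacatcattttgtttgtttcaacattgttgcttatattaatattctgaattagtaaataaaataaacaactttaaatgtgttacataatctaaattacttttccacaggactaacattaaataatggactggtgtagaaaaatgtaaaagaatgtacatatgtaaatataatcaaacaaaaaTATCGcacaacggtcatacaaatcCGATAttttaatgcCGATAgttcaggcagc
Rpt5 (chr3R:23752626-23752925, plus strand): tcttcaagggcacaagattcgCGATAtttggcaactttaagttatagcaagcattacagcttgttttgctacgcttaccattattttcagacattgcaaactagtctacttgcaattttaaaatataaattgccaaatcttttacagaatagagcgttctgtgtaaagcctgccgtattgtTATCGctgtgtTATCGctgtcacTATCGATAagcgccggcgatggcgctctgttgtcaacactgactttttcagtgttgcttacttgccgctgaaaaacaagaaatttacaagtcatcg
Prosbeta2R1 (chrX:5808704-5809003, plus strand): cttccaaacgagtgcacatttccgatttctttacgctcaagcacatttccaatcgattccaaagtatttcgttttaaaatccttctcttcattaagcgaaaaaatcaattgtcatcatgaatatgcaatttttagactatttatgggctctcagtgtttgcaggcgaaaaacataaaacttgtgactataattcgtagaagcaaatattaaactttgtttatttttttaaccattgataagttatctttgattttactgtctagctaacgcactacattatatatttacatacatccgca
Prosbeta2R2 (chr3R:5219479-5219778, minus strand): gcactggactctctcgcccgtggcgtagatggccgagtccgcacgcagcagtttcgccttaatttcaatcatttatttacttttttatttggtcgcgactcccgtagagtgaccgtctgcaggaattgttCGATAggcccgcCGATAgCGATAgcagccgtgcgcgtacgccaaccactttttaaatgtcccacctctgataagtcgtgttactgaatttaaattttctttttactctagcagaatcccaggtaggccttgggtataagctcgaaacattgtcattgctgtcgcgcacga

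In the printed windows a DRE began at −197 bp from the start site in Rpn3, at −10 bp in Prosbeta2 and at −46 bp in Rpt5. Rpn10 held CGATA without a DRE. The Prosbeta2R1 window held none of these words, and the Prosbeta2R2 window held CGATA only.

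Peaks were given to genes in 2 ways. A gene was the nearest gene of a peak when one of its transcription start sites was closest to the peak summit, and it had a promoter summit when a summit lay within 250 bp of one of its own start sites, which counts both genes of a head-to-head pair. The main list was the conservative list of the series, made by the authors from all 3 replicates and holding 4943 peaks. The thresholded lists of replicates 1, 2 and 3 held 3701, 3353 and 2515 peaks on the main chromosome arms. Every peak in these lists had an irreproducible discovery rate (IDR, the share of peaks of that rank or better that would not be found again) of at most 0.01.

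Peaks of the fusion lay at the start sites of part of the general subunit genes and at those of no paralogue. In the conservative list 13 of 32 general subunits (40.6%) were the nearest gene of a summit, against 1 of 16 paralogues (6.25%) and 23.9% of all protein-coding genes. Promoter summits were likewise found at 13 general subunits, against 0 of 16 paralogues and 20.7% of all genes. The replicate lists held fewer.

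As nearest gene, the general subunits numbered 7, 9 and 5 of 32 in replicates 1, 2 and 3 (21.9%, 28.1% and 15.6%), against 0 paralogues in each. All protein-coding genes reached 19.1%, 18.3% and 14.4%. The general share averaged 21.9% ± 6.25 (SD, n = 3 replicate lists), which was 21.9 ± 6.25 percentage points above the paralogues and 4.62 ± 4.56 points above all genes. The difference to all genes was about the size of the spread between replicates. Both differences had the same sign in 3 of 3 lists. An exact two-sided sign-flip permutation test over the 3 lists gave p = 0.25 for each, the smallest it can give.

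Promoter summits gave a larger gap. General subunits with one numbered 10, 11 and 6 of 32 in replicates 1, 2 and 3 (31.2%, 34.4% and 18.8%), against 0 of 16 paralogues in each list. The share over all protein-coding genes was 16.2%, 15.6% and 11.7%. The general share averaged 28.1% ± 8.27 (SD, n = 3), or 28.1 ± 8.27 points above the paralogues and 13.6 ± 6.01 points above all genes, again with exact two-sided p = 0.25 for both. The lowest replicate share of the general subunits, 18.8%, lay above the highest share of all genes, 16.2%.

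**Figure D1:**
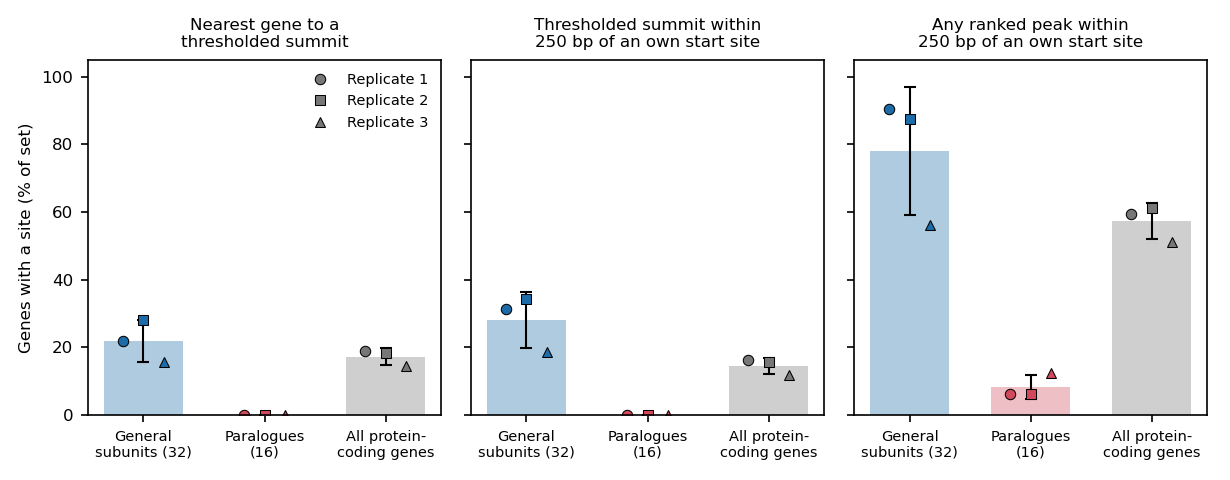
Share of genes with a site, in percent of the set, for the 32 general subunits, the 16 paralogues and all protein-coding genes under 3 measures. Bars are means of the 3 replicate lists, error bars are SD and symbols are single replicates. The general subunits average 21.9%, 28.1% and 78.1% from left to right, against 0%, 0% and 8.33% for the paralogues and 17.3%, 14.5% and 57.3% for all genes.

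The Rpn subunits form the lid of the cap and part of its base. Of the 12 general ones, 6 had a promoter summit in the conservative list, against 20.7% of all genes. In replicates 1, 2 and 3 they numbered 6, 6 and 3 of 12, against 16.2%, 15.6% and 11.7% of all genes. Rpn6, a scaffold of the lid that braces the cap against the core, had the peak of highest signal among all subunits in the conservative list and in replicates 2 and 3, while Rpn3 had it in replicate 1. The conservative summit of Rpn6 lay 125 bp upstream of the nearest of its 2 start sites, in an intron of Rpn6. Its signal was 309, ranked 643 of 4943, and the −log10 IDR of Rpn6 was 3.89, 5 and 4.76 in replicates 1, 2 and 3. The signal is the authors' own enrichment value, used only for order within a list. All 3 replicates were high for Rpn6, the best value in the lists being 5. The conservative summit was equally far from the start site of ave, the divergent neighbour of Rpn6, and the replicate 1 summit lay nearer to ave.

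Rpn3, another lid subunit, followed at rank 769 with signal 281 and a summit 6 bp upstream of the start site. Its −log10 IDR was 4.28, 4.47 and 3.80 in replicates 1, 2 and 3. Rpn10, a receptor for ubiquitin chains, ranked 1514 with signal 187, and its summit lay 10 bp downstream of the start site in the 5′ UTR. Its −log10 IDR was 2.66, 3.15 and 3.33 in the 3 replicates. All these values lay past the threshold of 2, so that Rpn6, Rpn3 and Rpn10 had promoter summits in every replicate list. Rpn13, another ubiquitin receptor of the cap, ranked 1547 with signal 184 and a summit 81 bp upstream. Its −log10 IDR was 3.33 and 2.96 in replicates 1 and 2 but 1.81 in replicate 3, below the threshold.

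Rpn2, a large scaffold of the base, and Rpn11, the enzyme that cuts ubiquitin off substrates, were the other Rpn genes with a conservative promoter summit, at ranks 3126 and 4162. Each passed the threshold in 1 replicate list, Rpn2 in replicate 1 at −log10 IDR 2.36 and Rpn11 in replicate 2 at 2.27. Rpn8, the partner of Rpn11, passed only in replicate 1 at 2.62, against 0.227 in replicate 2 and no ranked peak in replicate 3. Rpn12, a lid subunit, passed only in replicate 2 at 2.75, against 0.196 in replicate 1 and 0.0929 in replicate 3. These 4 genes thus passed in 1 replicate each and missed the threshold in the others. The other 4 Rpn genes, the base scaffold Rpn1 and the lid subunits Rpn5, Rpn7 and Rpn9, passed in no list. Their highest −log10 IDR over the replicate lists was 1.49 in Rpn1, 0.198 in Rpn5, 0.521 in Rpn7 and 0.244 in Rpn9. In the ranked list that holds the conservative peaks it was 1.43, 0.402, 0.714 and 0.323 in the same order.

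Among the 6 Rpt ATPases, which form the ring that unfolds substrates, only Rpt5 had a conservative promoter summit. Its peak ranked 2561 with signal 133, and the −log10 IDR was 3.04, 2.33 and 0.0835 in replicates 1, 2 and 3. Replicate 3 thus stood far below the other two. The summit lay 66 bp upstream of the Rpt5 start site but 24 bp from the start site of RanBP3, which lies head to head with Rpt5 at 42 bp. A second, weak summit at rank 4871, 135 bp downstream of the start site, was the one nearest to Rpt5. Rpt1 passed in replicate 2 at 2.69, against 1.34 in replicate 1 and 0.588 in replicate 3. Rpt2, Rpt3, Rpt4 and Rpt6 passed in no list. Their highest −log10 IDR over the replicate lists was 0.286, 0.706, 0.573 and 0.313 in that order. The ranked list that holds the conservative peaks gave 0.226, 0.389, 0.984 and 0.431. The Rpt counts, at 1 of 6 in the conservative list and 1, 2 and 0 of 6 in replicates 1, 2 and 3, are too small to set apart from the shares of all genes.

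In the alpha ring, 3 of the 7 general genes had a conservative promoter summit, against 20.7% of all genes, and 1 of 7 in each replicate list. A count of 1 of 7 is near the share of all genes in those lists, at 16.2%, 15.6% and 11.7%. That 1 was Prosalpha3, whose peak ranked 1848 with signal 165 and a summit 87 bp upstream. Its −log10 IDR was 2.11, 3.26 and 3.66 in replicates 1, 2 and 3, past the threshold in every list. Prosalpha5 and Prosalpha7, at ranks 3296 and 3272, were in the conservative list but in no replicate list. Prosalpha5 had −log10 IDR values of 1.53, 1.498 and 1.30, close to each other and under the threshold. Prosalpha7 had 0.217 in replicate 1, 1.995 in replicate 2 and 0.0959 in replicate 3, so 1 replicate lay just outside the threshold and the other two far below it. Over the replicate lists Prosalpha2 reached at most 1.28, Prosalpha4 0.384 and Prosalpha6 0.169. In the ranked list that holds the conservative peaks they had 0.268, 1.13 and 0.960, all under the threshold.

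Prosalpha1 was the only general subunit without a ranked peak in any list. It has a near-identical copy, the paralogue Prosalpha1R, whose start site lies 3093 bp away. The genes are 98.8% identical over their length and 89.3% identical over the promoter windows, and neither had a ranked peak. Reads from such copies may not be placed in one of them, and how the authors treated them is not given in the sources used here. The part of read placement in these empty values was not tested, so both genes are uncertain.

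In the beta ring, 3 of the 7 general genes had a conservative promoter summit, against 20.7% of all genes. In each replicate list it was 2 of 7, against 16.2%, 15.6% and 11.7% of all genes. These counts are too small to set apart from the shares of all genes. The 3 genes of the conservative list encode the proteolytic subunits Prosbeta1, Prosbeta2 and Prosbeta5. Prosbeta2, the trypsin-like subunit, ranked 1102 with signal 227 and a summit 135 bp upstream of the start site. Its −log10 IDR was 2.85, 3.68 and 4.41 in replicates 1, 2 and 3, past the threshold in every list. Its divergent neighbour mRpL39, at 285 bp, was the nearest gene of the best summit in replicates 1 and 2. Prosbeta1, the caspase-like subunit, ranked 2412 with signal 138, and its −log10 IDR was 2.09, 2.67 and 0.922 in replicates 1, 2 and 3. Prosbeta5, the chymotrypsin-like subunit, ranked 3016 with signal 119, and its −log10 IDR was 1.56, 1.51 and 2.16. Prosbeta1 thus passed in replicates 1 and 2, and Prosbeta5 in replicate 3 only. The structural subunits were lower in the replicate lists, at no more than 0.647 in Prosbeta3, 0.0850 in Prosbeta4, 0.0994 in Prosbeta6 and 0.164 in Prosbeta7. In the ranked list that holds the conservative peaks, Prosbeta7 had 0.721 and the other 3 had no peak.

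Over the particle, 5 of the 32 general subunits had a promoter summit in all 3 replicate lists (Rpn3, Rpn6, Rpn10, Prosalpha3 and Prosbeta2), or 15.6%, against 0 of 16 paralogues and 8.86% of all genes. A further 3 had one in 2 lists, 6 in 1 list and 18 in none. Of the 18, only Prosalpha5 and Prosalpha7 were in the conservative list. In all, 16 general subunits had a promoter summit in at least 1 of the 4 lists and 16 in none, against 0 of 16 paralogues and 24.0% of all genes with one. None of the conservative member peaks was among the 500 peaks of highest signal. The median rank of the 13 promoter peaks was 48.8% down the conservative list, against 39.3% for all genes with a promoter summit. In replicates 1, 2 and 3 it was 59.4%, 52.6% and 48.2%, against 41.5%, 41.7% and 40.9%, so subunit peaks sat lower in each list than promoter peaks at large. That order was not tested.

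The start sites of the 16 paralogues lay far from the thresholded summits. Prosbeta5R1 alone was the nearest gene of a conservative summit, which lay 11765 bp downstream of its start site in intergenic sequence at rank 3659. No summit within 250 bp accompanied it. The median distance from a start site to the nearest conservative summit was 1788 bp for the general subunits, 25521 bp for the paralogues and 5866 bp for all genes. In replicates 1, 2 and 3 it was 3265, 2938.5 and 5972 bp for the general subunits, against 41158, 36652 and 40241.5 bp for the paralogues and 8425, 8845 and 12344 bp for all genes. The closest conservative summit to any paralogue start site lay 3397 bp away, at Prosbeta2R2.

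The ranked lists also hold the peaks of higher IDR that missed the threshold. They held 78296, 98760 and 85601 peaks for replicates 1, 2 and 3, and a ranked peak is common at start sites in general. A ranked peak lay within 250 bp of a start site for 29, 28 and 18 of the 32 general subunits in replicates 1, 2 and 3, against 1, 1 and 2 of the 16 paralogues. The general shares were 90.6%, 87.5% and 56.2%, against 59.4%, 61.2% and 51.2% of all genes. The general share averaged 78.1% ± 19.0, against 8.33% ± 3.61 for the paralogues and 57.3% ± 5.35 for all genes (SD, n = 3). The difference was 69.8 ± 22.6 points to the paralogues, with exact two-sided p = 0.25, the smallest possible. Replicate 3, with the fewest thresholded peaks, was the lowest for the general subunits and for all genes, and their gap was smallest there.

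With a gene without a ranked peak counted as 0, the median −log10 IDR of the general subunits was 0.610, 0.657 and 0.0944 in replicates 1, 2 and 3, against 0 in each list for the paralogues and 0.165, 0.116 and 0.0382 for all genes. At least 1 replicate had a ranked peak at 31 of 32 general subunits, 4 of 16 paralogues and 75.6% of all genes. All 3 replicates had one at 17 general subunits (53.1%), 0 paralogues and 38.2% of all genes. The 4 paralogues were Prosalpha3T, Prosbeta2R1, Prosbeta2R2 and Prosbeta4R1, each in 1 replicate. The highest value of a paralogue was a −log10 IDR of 1.45 for Prosbeta2R2 in replicate 1, which had no peak there in replicates 2 and 3. The other 3 reached 0.167 in Prosalpha3T, 0.134 in Prosbeta2R1 and 0.376 in Prosbeta4R1.

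**Figure D2:**
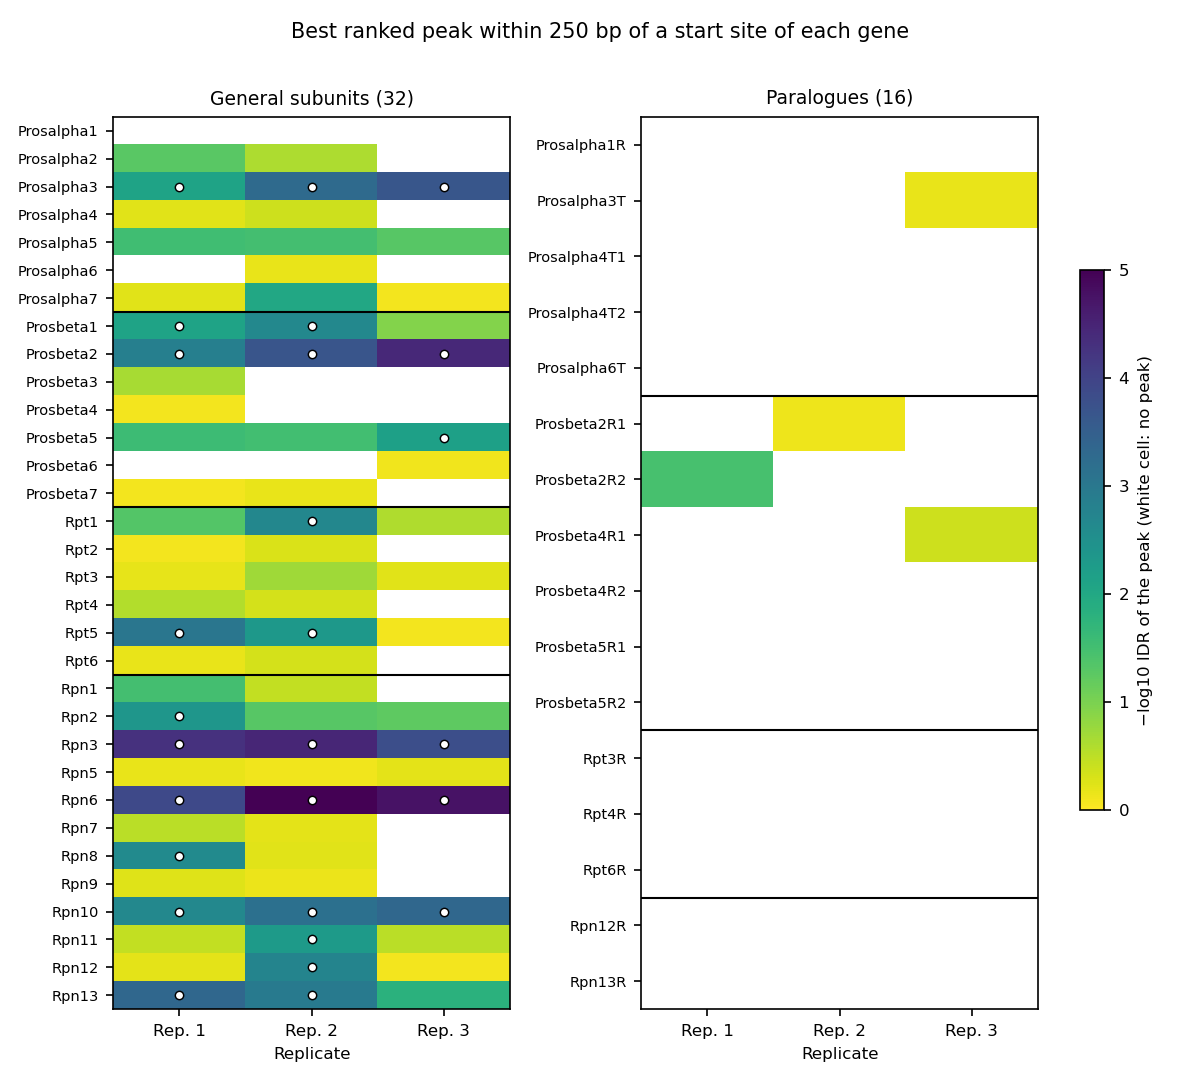
Best ranked peak within 250 bp of a start site of each subunit gene in each replicate, coloured by −log10 IDR from 0 to 5, with general subunits in the left panel and paralogues in the right. White cells have no ranked peak, dots mark values of 2 or more, and lines separate the alpha ring, beta ring, Rpt and Rpn genes. Rpn3, Rpn6, Rpn10, Prosalpha3 and Prosbeta2 carry dots in all 3 columns, and no paralogue carries one.

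Summits sat close to the start sites and mostly upstream of them. In the conservative list the median position was 52 bp upstream, between 143 bp upstream and 10 bp downstream, and 11 of 13 summits were upstream. In replicates 1, 2 and 3 the medians were 58.5, 83 and 62.5 bp upstream. For all genes with a promoter summit the medians were 74 bp upstream in the conservative list and 74, 85 and 107 bp in replicates 1, 2 and 3. The median position of the subunit summits was thus less far upstream in each list, though nearly equal in replicate 2, at 83 against 85 bp. These medians are of signed positions, not of distances, and the difference was not tested.

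**Figure D3:**
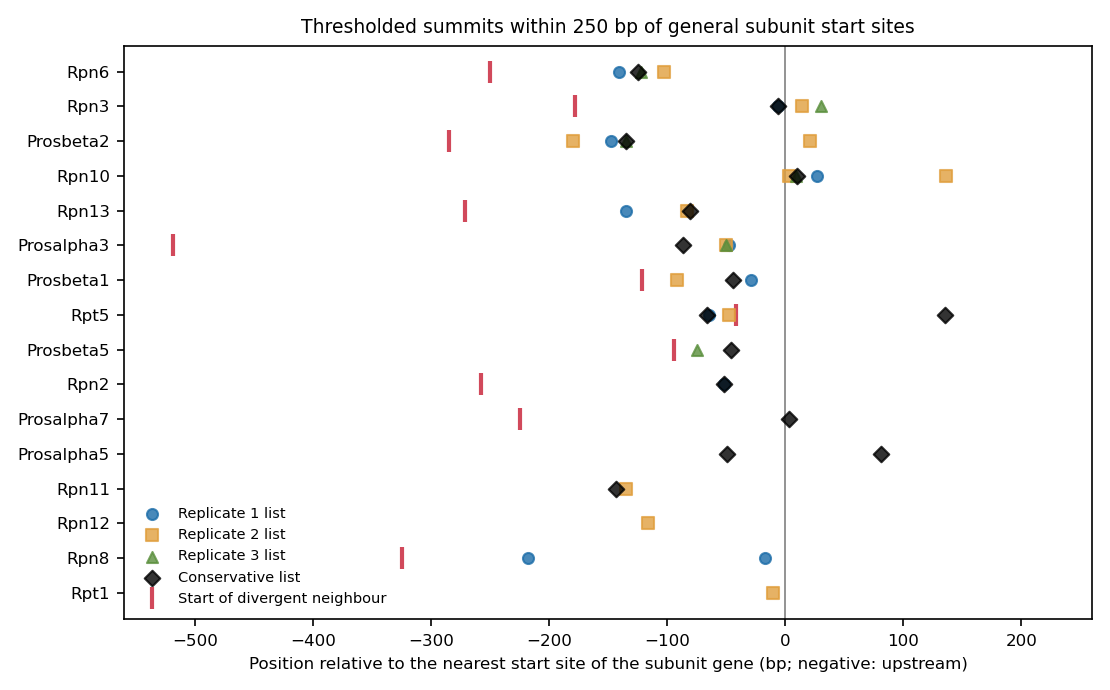
Positions of thresholded summits within 250 bp of the start sites of the 16 general subunits that have one, in bp from the start site with upstream to the left, by list. Vertical ticks mark the start site of a divergent neighbour, and genes are ordered by conservative rank with those absent from that list last. Most summits lie upstream of the start site, and the conservative median is 52 bp upstream.

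Many general subunit genes share their promoter region with another gene. A protein-coding start site on the opposite strand lay at most 1000 bp upstream of 22 of 32 general subunits (68.8%), against 4 of 16 paralogues (25.0%) and 36.2% of all genes. Among those with such a neighbour, 10 of 22 general subunits (45.5%) had a conservative promoter summit, against 0 of 4 paralogues and 33.4% of all genes. Among those without, it was 3 of 10 general subunits (30.0%), against 0 of 12 paralogues and 13.4% of all genes. The general subunits thus stood above all genes in both classes, which was not tested. A summit between such a pair cannot be assigned to one of the genes. Of the promoter summits counted for general subunits, 1 of 13 was nearer to another gene in the conservative list, 4 of 10 in replicate 1, 3 of 11 in replicate 2 and 1 of 6 in replicate 3.

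The promoter windows of all members were searched for 10 fixed words on both strands. DRE (TATCGATA), bound by the factor DREF, was in 12 of 32 general windows (37.5%), against 0 of 16 paralogue windows and 9.23% of all promoters. Among general subunits it was in 7 of 13 with a conservative promoter summit (53.8%) and in 5 of 19 without (26.3%), and in 16.1% of all promoters with such a summit. CGATA, which DRE contains, was in 27 of 32 general windows (84.4%), against 8 of 16 paralogue windows and 47.5% of all promoters. It was in all 13 general windows with a summit and in 14 of 19 without (73.7%), and in 58.8% of all promoters with a summit. The words were also frequent at the summits themselves. Within 200 bp centred on the 13 conservative summits, DRE was in 5 (38.5%) and CGATA in 10 (76.9%), against 5.30% and 34.3% of all conservative summits. The latter include summits away from start sites, so that comparison also sets promoters beside other sites. The share at promoter summits of all genes was not computed for this window.

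GGTCACACT, motif 1, was in 6 of 32 general windows (18.8%), against 0 of 16 paralogue windows and 6.07% of all promoters. All 6 were among the 19 general subunits without a conservative promoter summit, namely Prosalpha2, Prosalpha4, Prosbeta3, Rpn1, Rpn7 and Rpn8, while 9.44% of all promoters with a summit held it. TAATTA, a core recognised by many homeodomain proteins, the family of Dbx, was in 4 general windows (12.5%), against 2 paralogue windows (12.5%) and 20.1% of all promoters. Only 1 of the 13 general windows with a summit held it, that of Rpn6, against 21.7% of all promoters with a summit. A match or its absence describes these letters only and says nothing of what the fusion contacts.

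The other 6 words gave smaller or opposite differences. GAGAG, bound by the GAGA factor, was in 9.38% of general windows, against 37.5% of paralogue windows and 30.2% of all promoters. The E-box of motif 5, CAGCTG, was in 6.25% of general windows, against 6.25% of paralogue windows and 17.8% of all promoters. For the TATA box the letters TATAAA were searched, which were in 43.8% of general windows, against 31.2% of paralogue windows and 45.5% of all promoters. For the initiator core the letters TCAGT were searched, which were in 56.2% of general windows, against 8 of 16 paralogue windows and 52.1% of all promoters. Both words were thus about as frequent in general windows as in all promoters. They were counted anywhere in the window, so a match need not be a TATA box or an initiator. The core of the antioxidant response element, TGACNNNGC, was in 15.6% of general windows, against 6.25% of paralogue windows and 8.59% of all promoters, in none with a conservative promoter summit. The pair of the heat shock element, GAANNTTC, was in no general window, in 6.25% of paralogue windows and in 9.33% of all promoters. The GC content of the windows was 34.1% ± 5.75 in general subunits, 35.7% ± 7.98 in paralogues and 39.2% ± 7.78 in all genes (SD over windows). Both sets of subunit windows were thus poorer in GC on average than promoters at large.

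**Figure D4:**
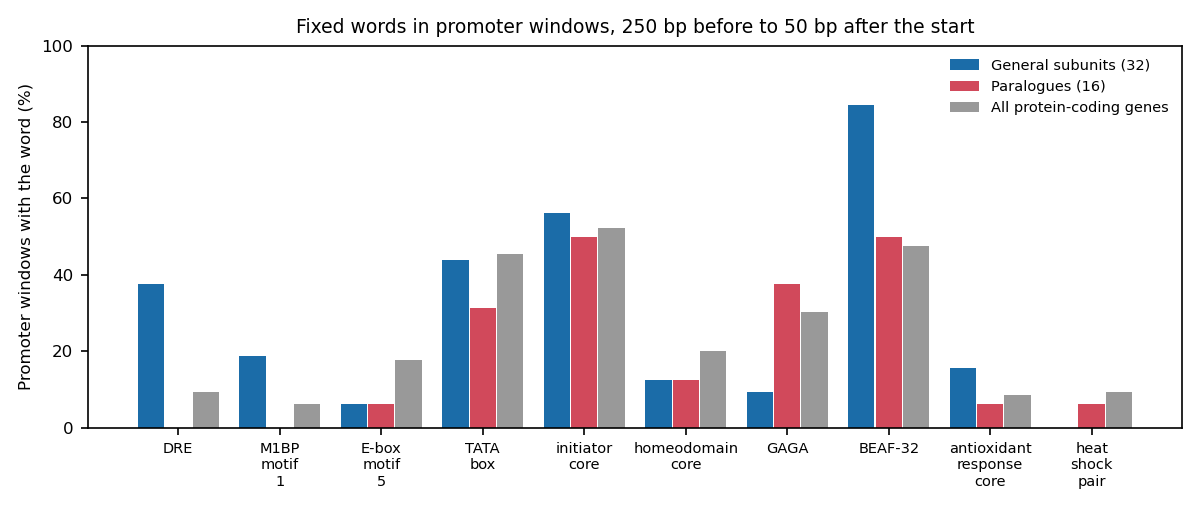
Share of promoter windows, from 250 bp before to 50 bp after the start site, that hold each of 10 words on either strand, in percent, for the 32 general subunits, the 16 paralogues and all protein-coding genes. DRE and BEAF-32 (CGATA) reach 37.5% and 84.4% in the general subunits, and 9.23% and 47.5% in all genes. The paralogues hold DRE in 0% and CGATA in 8 of 16 windows.

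Genes that work with the proteasome were taken from a fixed list of 25 symbols, of which 24 were found in the annotation. In the conservative list 10 of the 24 (41.7%) were the nearest gene of a summit, against 23.9% of all genes. In replicates 1, 2 and 3 it was 7, 8 and 5 of 24 (29.2%, 33.3% and 20.8%), each above the share of all genes in that list given earlier. Pomp, the chaperone that assembles the core, ranked 1201 in the conservative list and was nearest in all 3 replicates. So were TER94, the unfolding ATPase known as p97 in mammals, at rank 1563, RpS27A, which encodes a ubiquitin fused to a ribosomal protein, at rank 780, and cnc, at rank 1371. The cnc gene encodes the fly relative of Nrf2, a known activator of proteasome genes, and its best ranked conservative summit lay 2539 bp downstream of the nearest of its start sites, with another within 250 bp of a start site.

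The other cofactors nearest to a conservative summit were REG, an activator of the core, PI31, a regulator that binds the core, p47, a partner of TER94, Pngl, a deglycosylating enzyme, Uba1, the ubiquitin-activating enzyme, and ntc, an F-box protein that acts with PI31 in sperm. Their ranks were 2205 for REG, 2781 for PI31, 2184 for p47, 1997 for Pngl, 4605 for Uba1 and 789 for ntc. PI31 and Uba1 were nearest in no replicate list. Promoter summits were at 8 of 24 (33.3%) in the conservative list, against 20.7% of all genes. In replicates 1, 2 and 3 they were at 5, 6 and 5 of 24 (20.8%, 25.0% and 20.8%), against 16.2%, 15.6% and 11.7% of all genes. The deubiquitinases Usp14 and Uch-L5, the shuttle factors Rad23 and Ubqn and the small cap subunit Sem1 were nearest to no summit in any of the 4 lists.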

How the data were processed

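Anti-GFP ChIP-seq was done on whole embryos 8 to 24 h old in 3 biological replicates, from chromatin sonicated to 200 to 800 bp, per the labels. The authors deposited ranked and thresholded peak lists on dm6 for each replicate and for the series. The signal of each peak, its summit offset from the peak start and −log10 of its IDR are the authors' deposited values. The signal is comparable only within a list. Which aligner and peak caller made them is not given in the sources used here, nor which replicates the conservative list compares. The depth of the libraries is unknown, and no interval resting on it is printed. The age comes from the source name, since the age field holds a value that no embryo can have. In each series-level ranked list, 8 columns of unnamed single samples were not used.

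Coordinates are 1-based on dm6. Start sites came from the Ensembl release 115 annotation, and sequence from the RefSeq genome of that build. Peaks off the 6 main chromosome arms were left out. A summit equally near to start sites of several genes was given to each. Thresholded lists lack some peaks of the ranked lists with an IDR of at most 0.01 (152, 132, 101 and 76 in the conservative list and replicates 1, 2 and 3), of which 0 lay at subunit promoters. Shares were compared over the 3 replicate lists by an exact two-sided sign-flip permutation test, and genes were not treated as replicates. The p-values measure only the spread between these libraries. The assignment steps were tested on simulated data. Python 3.11.15 with pandas 2.3.3, numpy 2.4.6, Biopython 1.88 and matplotlib 3.10.9 was used.

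The members, word list and cofactor list were chosen with earlier results of these data known. Full values were given for the 8 general subunits of best conservative rank and for the paralogue nearest to a conservative summit. For most general subunits without such a summit, only the highest replicate value and the value in the series-level ranked list were given. Of the cofactor list, Ufd1-like was read as Ufd1 from its synonyms, and Ecm29 was not matched. Protein sequences were not used here.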

Additional observations from a re-analysis of the deposited data

How the results depend on the processing

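Of the values recomputed under the alternatives, 67 were labelled the same, 43 moved and 0 reversed. A count could not be labelled reversed. For the difference between general subunits and paralogues, the same meant only the same sign. With paralogues at 0 that difference could not turn negative. The conservative list gave 14 subunit genes as nearest gene, 3 general alpha, 3 beta, 1 Rpt and 6 Rpn genes, and 10 cofactors. At an IDR of at most 0.001 these were 6 of 48 subunit genes, 0 of 7 alpha and 1 of 7 beta genes. The same setting left 1 of 6 Rpt genes, 4 of 12 Rpn genes and 8 of 24 cofactors, against 14.9% of all genes. Among the 500 peaks of highest signal all 6 counts were 0, against 3.48% of all genes, and the difference between general subunits and paralogues was 0 points (exact p = 1.0). Peaks found in all 3 replicate lists were taken at an overlap of 1 bp or of most of the shorter peak. Either way 5 of 48 subunit genes, 1 alpha, 1 beta, 0 Rpt and 3 Rpn genes and 3 cofactors were left. All genes reached 10.8% and 10.6%. At none of these stricter settings did the share of the 48 subunit genes, paralogues included, exceed that of all genes. The subunit genes left were all general ones. Of the 32 general subunits alone, 6 were left at an IDR of at most 0.001, above the 14.9% of all genes. With peaks in all 3 replicate lists 5 of 32 (15.6%) were left, above the 10.8% and 10.6% of all genes. These differences were not tested. A conservative peak was also required in both lists that remain when a replicate is left out. Without replicates 1, 2 and 3 this gave 5, 5 and 8 of 48 subunit genes, against 11.9%, 11.6% and 14.0% of all genes. Only the count without replicate 3 lay above the share of all genes. The same settings gave 1 alpha gene in each case, 1 to 2 beta, 0 to 1 Rpt and 3 to 4 Rpn genes and 3 to 5 cofactors.

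The mean difference between general subunits and paralogues, 21.9 points over the 3 replicate lists, was 12.5 at an IDR of at most 0.001 and 69.8 with any ranked peak. It ranged from 18.8 to 25.0 when a replicate was left out. In the conservative list it was 34.4 points, and 15.6, 15.6 and 25.0 without replicates 1, 2 and 3. The ranked-peak share of general subunits ranged from 71.9% to 89.1%, highest without replicate 3. This setting, the treatment of ties, the ranked lists and the longest list for promoter summits were chosen after seeing the data. The median summit position was −66 bp in the longest list and −87 bp with peaks in all 3 replicate lists, against −52 bp. The 500 peaks of highest signal gave no position. E-box motif 5, motif 1, the antioxidant core and the homeodomain core were in 0% of the 200 bp windows at the 13 conservative summits. In the promoter windows of all 32 general subunits they were in 6.25%, 18.8%, 15.6% and 12.5%. The promoter windows of the 13 with a summit held them in 0%, 0%, 0% and 7.69%. The gene sets of the first 2 sets of values thus differ, not only the windows. Fewer peaks remain under each stricter setting, while the longest list holds more, at 6386. The causes of these moves were not tested. No paired analysis was possible because all samples belong to 1 group. With 3 lists the exact test cannot go below 0.25, and the depth of the libraries is unknown.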

Other observations

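The general subunit genes with a conservative promoter summit were spread unevenly over the chromosome arms. On 2R 7 of 10 had one, on 2L 2 of 4, on 3L 2 of 5, on 3R 2 of 9 and on X 0 of 4. Over all protein-coding genes the shares were 21.5% on 2R, 20.6% on 2L, 21.8% on 3L, 21.1% on 3R and 18.0% on X. The paralogues had 0 on every arm. The unevenness was not tested.

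Other large protein complexes gave different shares of promoter summits. The general proteasome subunits averaged 28.1% ± 8.27 over the 3 replicate lists, against 66.3% ± 5.37 for 88 cytoplasmic ribosomal protein genes and 24.2% ± 3.95 for 73 mitochondrial ribosomal protein genes (SD, n = 3). In the conservative list it was 40.6% of the general subunits, against 71.6% of the cytoplasmic and 32.9% of the mitochondrial ribosomal protein genes. The general subunits thus lay far below the cytoplasmic ribosomal proteins, by more than the spread between replicates, and within that spread of the mitochondrial ones. These differences were not tested.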
